A study of Homo sapiens with 24 samples.

Results

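RNA-seq of OS-LM1 cells carrying shPAX8-1, a short hairpin RNA against PAX8, was compared with RNA-seq of OS-LM1 cells labelled sgNTC18. The comparison was chosen by cell line and construct in the labels, and it takes 8 of the 24 libraries of the series, 4 with shPAX8-1 and 4 with sgNTC18. OS-LM1 is a metastatic derivative of the human clear cell renal cell carcinoma (ccRCC) line OS-RC2 and lacks functional VHL. Every library came from cells in RPMI with 10% FBS, harvested at 80% confluence. Beyond the line and the construct the labels name no agent, and the doxycycline treatment of these cultures is not given in the sources used here. The remaining libraries hold shPAX8-2 in OS-LM1, and shPAX8-1, shPAX8-2 and sgNTC18 in 786-M1A, a metastatic derivative of the 786-O ccRCC line, with 4 libraries a group. The name sgNTC18 is not spelled out in these sources, and the sgNTC18 libraries may come from another experiment than the shPAX8 libraries. For any difference from sgNTC18, the construct, the cell stock and the experiment therefore cannot be told apart. Nothing states that the 4 replicates of a group were separate cultures, so the p-values measure the spread between these libraries, which may be technical.

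PAX8 is a paired-box transcription factor that specifies the kidney lineage during development and stays on in the epithelium of the adult nephron. It is retained in nearly all clear cell renal tumours, where it binds enhancers of the renal epithelial programme. Loss of VHL in these tumours stabilizes the HIF alpha subunits, and the enhancer of the cyclin D1 gene CCND1 is among the sites at which HIF2A, the product of EPAS1, acts in renal cells.

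The guide strands of the hairpins and the PAX8 sequences they pair with are shown because they place the site of action and define the seed, the stretch by which an RNAi guide can also contact other transcripts. PAX8 lies on chromosome 2 of GRCh38 at 113215997 to 113278921. The shPAX8-1 site, chr2:113241690-113241711 on the minus strand, is in the coding part of exon 7 of 12 of the canonical transcript ENST00000429538, and 10 of the 14 annotated PAX8 transcripts hold it. The shPAX8-2 site, chr2:113218122-113218143 on the same strand, is in the 3′ UTR in exon 12. All are written 5′ to 3′ in DNA letters, with the seed (bases 2 to 8 of the guide) or its match in capitals.
shPAX8-1 guide: tGTGAGTCaatgcttagtcggc
shPAX8-1 target site in PAX8: gccgactaagcattGACTCACa
shPAX8-2 guide: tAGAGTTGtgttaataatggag
shPAX8-2 target site in PAX8: ctccattattaacaCAACTCTa

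Expected counts summed to between 18182198 and 27042195 in the shPAX8-1 libraries and between 32918675 and 37086285 in the sgNTC18 libraries. The groups also stood apart in other ways. RNA18S5, the 18S ribosomal RNA, took 2.53% to 3.58% of counts with shPAX8-1 and 6.06% to 8.16% with sgNTC18, and the fifth of genes with the lowest GC content took 17.5% to 19.7% against 12.9% to 14.3%. The 10 ccRCC markers examined were detected in both groups, whereas CD3E, MS4A1, CD163 and HBA1, which mark T cells, B cells, macrophages and erythroid cells, were at 0 in all 8. Summed over 19 immune, endothelial, stromal, erythroid and liver markers, the level was 245 to 352 CPM with shPAX8-1 and 80.9 to 94.3 CPM with sgNTC18, nearly all of it CD68, a lysosomal protein gene that cells other than macrophages also express, at 239 to 344 and 73.9 to 86.8 CPM. In bulk RNA, a change in the number of cells of a type and a change in RNA per cell cannot be told apart.

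Genes of the X chromosome were lower as a group. The median log2 fold change of its 501 tested genes was -0.74, with 52 called higher and 329 lower, whereas the medians of the 22 autosomes ran from -0.54 on chromosome 16 to 0.31 on chromosome 13. Measured per library against the sgNTC18 mean, the X median was between -0.74 and -0.72 in every shPAX8-1 library and between -0.03 and 0.01 in the sgNTC18 libraries. With shPAX8-2, against the same controls, it was -0.79, and between the hairpins in OS-LM1 it was 0.02. In 786-M1A it was 0.08. Each X-linked gene named here is marked as such.

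**Figure D1:**
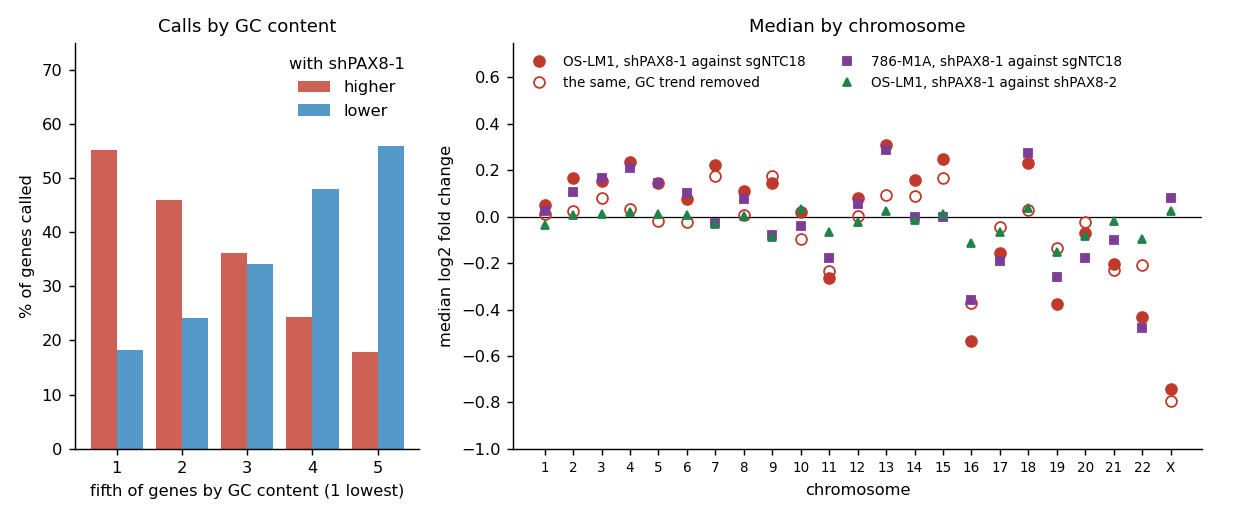
Left, percentage of genes called higher or lower with shPAX8-1 than with sgNTC18 in OS-LM1 (adjusted p under 0.05) for 5 classes of genes of rising GC content. Right, median log2 fold change of the genes of each chromosome, for the comparison as measured, with the GC trend removed, in 786-M1A, and between shPAX8-1 and shPAX8-2. In the lowest GC class 55.3% of genes were higher and in the highest 56.0% were lower, and the X chromosome median stood at -0.74.

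PAX8 mRNA was lower with shPAX8-1. Levels are given as CPM, expected counts scaled to a common library size after TMM normalization. PAX8 stood at 81.9, 75.9, 57.5 and 86.0 CPM in the 4 shPAX8-1 libraries and at 253, 281, 236 and 250 CPM in the sgNTC18 libraries. The groups did not overlap, and the remaining level was 29.5% of that with sgNTC18, a log2 fold change of -1.76 ± 0.12 (SE, edgeR adjusted p = 2.3e-10). With shPAX8-2 it was 63.5 to 94.0 CPM, and the difference between the hairpins, -0.05 ± 0.12, was not called (edgeR adjusted p = 0.80). In 786-M1A the same hairpin left 18.7 CPM of 341 CPM, a log2 fold change of -4.18, and in the fit of all 24 libraries, where the OS-LM1 value was -1.73, the difference of 2.45 ± 0.20 between the lines was called (edgeR adjusted p = 1.1e-10). Per unit of length, mean TPM with sgNTC18 was 114 ± 6.73 for PAX8 and 224 ± 31.6 for CCND1 (SD, n = 4).

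Both genes measured from the cyclin D1 locus on chromosome 11 were lower. CCND1, the D-type cyclin that drives entry into S phase, stood at 239, 294, 290 and 265 CPM with shPAX8-1 and at 627, 470, 549 and 504 CPM with sgNTC18, a log2 fold change of -0.98 ± 0.10 (edgeR adjusted p = 5.7e-08). MYEOV, the neighbouring gene on the side of the enhancer, was at 8.28, 7.69, 8.41 and 10.6 CPM against 75.4, 70.4, 70.2 and 68.8 CPM, the largest proportional loss among PAX8 and the 5 genes described with it here (-3.02 ± 0.12, edgeR adjusted p = 3.3e-14). Neither gene overlapped between the groups. Against shPAX8-2 CCND1 differed by -0.60 on a log2 scale (adjusted p in edgeR, 1.8e-04). MYEOV, in the same test, was lower with shPAX8-1 as well, at -0.53 (1.8e-03, edgeR with Benjamini-Hochberg adjustment).

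MYC and the HIF alpha genes went the other way. MYC, the proto-oncogene transcription factor, was at 193, 158, 135 and 188 CPM with shPAX8-1 and at 110, 89.2, 115 and 93.3 CPM with sgNTC18 (log2 fold change 0.73 ± 0.12, edgeR adjusted p = 2.2e-05). EPAS1, which encodes HIF2A, was at 178, 174, 173 and 189 CPM against 137, 112, 128 and 124 CPM (0.51 ± 0.09, edgeR adjusted p = 2.7e-05). HIF1A, the other oxygen-regulated alpha subunit, showed the widest separation, at 179, 137, 156 and 163 CPM against 30.9, 39.4, 33.3 and 36.8 CPM, which is 4.53 times the sgNTC18 level (2.18 ± 0.12, edgeR adjusted p = 5.1e-12). All 3 were higher in each shPAX8-1 library than in any sgNTC18 library. Between the hairpins, MYC and HIF1A were not called, with differences of -0.21 ± 0.12 and 0.29 ± 0.11 (edgeR adjusted p = 0.20 and 0.063), and EPAS1 was lower with shPAX8-1 by 0.29 (edgeR adjusted p = 0.015). For PAX8 and each of these 5 genes the exact permutation test over 4 against 4 libraries gave p = 0.0286 (two-sided, adjusted over 7 genes tested 0.0286), the smallest that 70 arrangements allow.

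**Figure D2:**
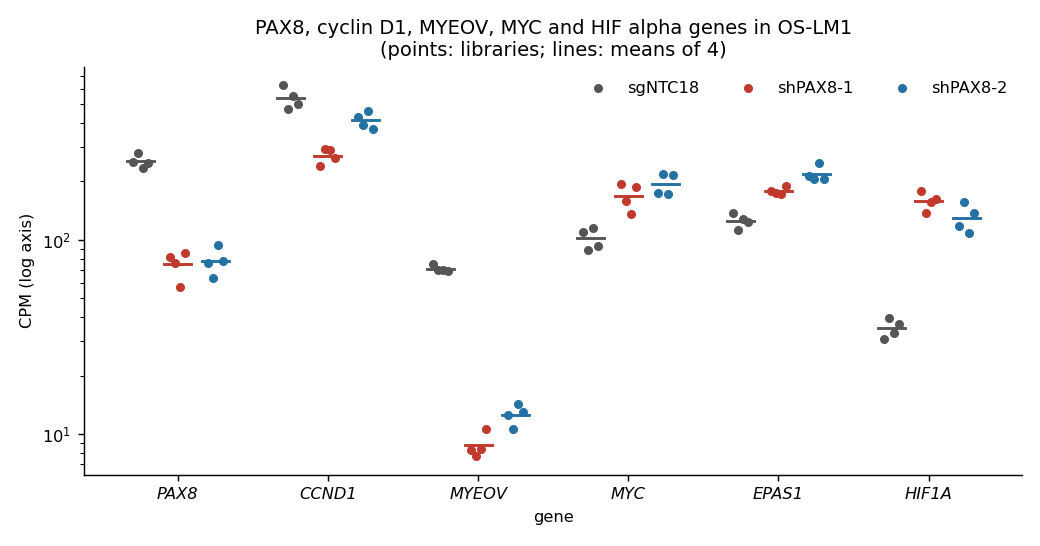
Level of 6 genes in each OS-LM1 library, in CPM on a log axis, for sgNTC18, shPAX8-1 and shPAX8-2. Points are libraries and lines are means of 4. PAX8, CCND1 and MYEOV are lower in every shPAX8-1 library than in any sgNTC18 library, and MYC, EPAS1 and HIF1A are higher.

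Across the transcriptome, 10746 of 15049 genes tested (71.4%) were called at an adjusted p under 0.05, with 5358 higher (35.6%) and 5388 lower (35.8%) with shPAX8-1. At over 1 on the log2 scale, 2258 were higher (15.0%) and 2491 lower (16.6%), and 10031 genes (66.7%) had no overlap in CPM between the groups. Counts over lists are read against these shares. The median over all genes tested was -0.01. The direction went with base composition. In the fifth of genes with the lowest GC content 55.3% were higher and 18.3% lower, and in the class with the highest GC content 17.9% were higher and 56.0% lower. After each library's GC trend was removed, 5228 genes were higher and 5620 lower. The log2 fold changes were then -1.42 for PAX8, -0.91 for CCND1, -2.67 for MYEOV, 0.73 for MYC, 0.69 for EPAS1 and 1.74 for HIF1A.

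Secreted proteases, a chemokine and a protease inhibitor were among the 12 genes that rose most at a mean log2 CPM of at least 3 over the 8 libraries. MMP3, the matrix metalloproteinase stromelysin 1, was at 355, 381, 346 and 346 CPM with shPAX8-1 and at 0.435, 0.856, 0.616 and 0.622 CPM with sgNTC18 (log2 fold change 9.14 ± 0.15, edgeR adjusted p = 3.1e-19). MMP1, the interstitial collagenase, went from 2.04 to 2.65 CPM up to 86.4 to 133 CPM (5.46). CXCL8, the neutrophil chemokine interleukin-8, went from 18.9 to 32.5 CPM up to 716 to 1156 CPM (4.97). The mucin gene MUC13 (5.72), GFPT2 of the hexosamine pathway (5.50), the transcription factor gene NFATC2 (5.39), LINC01279 (5.15), a symbol that RefSeq lists under CCDC80, the lipid phosphatase gene PPAP2B (4.78), the protease inhibitor gene A2M (4.54), FAM105A (4.42), the hyaluronan-binding CEMIP (4.39) and FAM198B (4.32) complete the 12 largest increases among genes with a mean log2 CPM of at least 3 and no overlap. Genes below that level rose by more than most of these, such as IL1B, SERPINB2 and COL3A1.

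Genes of the epithelial surface and of secreted factors led those that fell at the same level, and 4 of these 12 decreases are X-linked. Less abundant genes such as TGFB1I1 and DSP fell by more. PLS3, the actin bundler plastin 3 on the X chromosome, was at 1.02, 1.84, 1.74 and 1.28 CPM with shPAX8-1 and at 103, 101, 116 and 119 CPM with sgNTC18 (-6.22 ± 0.15, edgeR adjusted p = 3.1e-17). CLDN2, the X-linked claudin of the proximal tubule tight junction, was at 10.6, 9.94, 10.3 and 11.4 CPM against 423, 393, 377 and 384 CPM (-5.22 ± 0.10, edgeR adjusted p = 2.9e-18). The bombesin-like peptide receptor gene GRPR (-4.93) and the heparan sulphate proteoglycan gene GPC4 (-4.27) are the other X-linked members. On autosomes, MMP7, or matrilysin, went from 72.1 to 92.4 CPM down to 1.43 to 2.56 CPM (-5.42). The Wnt antagonist gene SFRP2 (-5.25), the insulin-like growth factor binding protein gene IGFBP5 (-5.00), the antisense AFAP1-AS1 (-4.96), the ubiquitin-like UBD (-4.56), CRISPLD2 (-4.05), the fibrinogen beta chain gene FGB (-4.04) and the semaphorin gene SEMA6A (-3.87) were the others.

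Among abundant genes, the largest gains in mean CPM were those of EEF1A1 (4016 to 6177 CPM), the annexin gene ANXA2 (2710 to 5175 CPM), the ferritin heavy chain gene FTH1 (4198 to 6123 CPM), RPL23A (805 to 2575 CPM) and the matrix proteoglycan gene SPOCK1 (1029 to 2797 CPM). The largest losses were those of RNA18S5 (70423 to 29854 CPM), the cytoskeletal genes ACTG1 (13015 to 6388 CPM), ACTB (17385 to 11807 CPM) and TUBA1B (5119 to 1772 CPM), and the intermediate filament gene VIM (9909 to 5296 CPM). RPL23A has processed copies in the genome, so its counts are uncertain. RNA18S5 is a ribosomal RNA in poly(A) libraries, and its share ran from 2.49% to 6.53% within the OS-LM1 shPAX8-2 group. The part of poly(A) selection in its loss was not tested. The log2 fold change of ACTB was -0.56, and -0.23 with the GC trend removed, where it lost its call once the replicate block was added (edgeR adjusted p = 0.063).

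**Figure D3:**
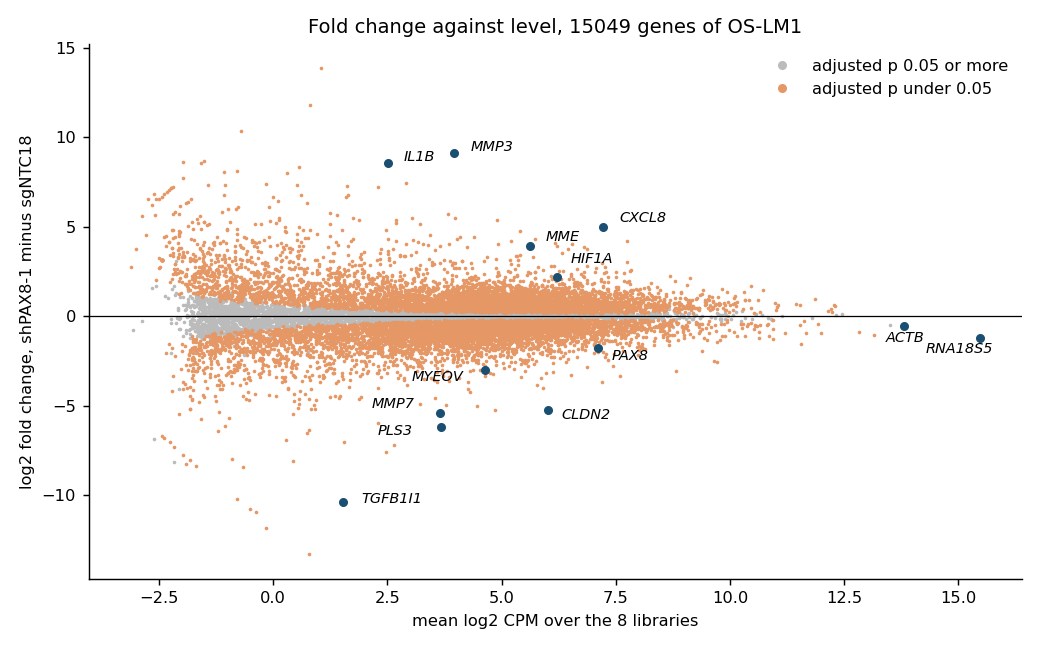
Log2 fold change of shPAX8-1 over sgNTC18 in OS-LM1 against mean log2 CPM over the 8 libraries, a point per gene tested, coloured by whether the adjusted p was under 0.05. Among the labelled genes, MMP3 at 9.14 and IL1B at 8.55 stand highest and TGFB1I1, near 0 CPM with shPAX8-1, lowest, with PAX8 at -1.76. Unlabelled genes such as MMP12 and PCNA-AS1 lie further out.

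Renal lineage factors did not move in 1 direction. Of 26 listed, 15 passed the filter on low counts, and 6 rose, 6 fell and 3 were not called, with a median of -0.18 that turned to 0.21 without the filter and was -0.049 with the GC trend removed. With PAX8, the nephron progenitor factor gene LHX1 fell, at 2.23 to 3.53 CPM against 11.4 to 12.6 CPM (-2.22 ± 0.17). PAX2, the closest relative of PAX8 in the kidney, was at 28.1 to 39.2 CPM against 35.9 to 42.0 CPM, overlapping groups, and was not called (-0.25 ± 0.13, edgeR adjusted p = 0.083).

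Differentiated tubule genes were split in the same way. Of 34 renal epithelial genes tested, 11 were higher and 15 lower, with a median of -0.13 that turned to 0.18 with the GC trend removed. The kidney cadherins fell most after CLDN2. CDH6 was at 45.7, 44.3, 44.3 and 41.3 CPM with shPAX8-1 and at 280, 321, 305 and 335 CPM with sgNTC18 (-2.82 ± 0.10), and CDH16, or Ksp-cadherin, was at 0.461 to 0.732 CPM against 4.86 to 5.82 CPM (-3.30 ± 0.23). MME, the brush border peptidase CD10, rose from 11.8, 12.1, 13.3 and 13.2 CPM to 183, 193, 204 and 180 CPM (3.92 ± 0.11). The groups did not overlap for any of the 3 genes. Of the 10 ccRCC markers, 3 rose (NDUFA4L2, MME and CA9) and 7 fell, among them PAX8, CDH6, VIM and EGLN3.

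Cell cycle genes gave the most one-sided lists. Of 43 S-phase genes of the Seurat list, 41 fell and 2 were not called, with a median of -1.57, and of 54 G2/M genes 1 was higher and 50 lower, with a median of -1.63. GINS2, a subunit of the replicative helicase complex, was at 6.23 to 8.64 CPM against 75.2 to 87.9 CPM (-3.35 ± 0.13). CDC45 (-3.01), which works in the same complex, and the X-linked POLA1 (-3.11), the catalytic subunit of DNA polymerase alpha, fell alongside. On the mitotic side FAM64A (-3.62), CDCA3 (-3.04), CDCA8 (-2.70) and the kinase gene AURKB (-2.63) fell, AURKB to a mean of 13.3 CPM from 81.8 CPM. In 786-M1A the S-phase list fell as well, with 35 of 43 lower, 0 higher and a median of -1.43. In the test of the difference between lines, 10 S-phase genes were higher and 14 lower in OS-LM1 (background 28.2% and 27.1%). The G2/M list was even in 786-M1A, with 19 of 54 higher and 19 lower and a median of 0.00. These counts are close to the 34.9% and 34.6% of all genes there. In the test of the difference, 47 of the 54 G2/M genes were lower in OS-LM1 (background 27.1%).

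The list around CCND1 holds cyclin D and E genes, CDK and CDK inhibitor genes, the RB and E2F families and MYEOV. Of 24 tested, 5 were higher and 16 lower, with a median of -0.78. The E2F genes that are themselves induced in the cycle fell, E2F2 to 0.694 to 1.13 CPM from 5.55 to 7.05 CPM (-2.92), E2F8 (-2.81) and E2F1 to 6.94 to 8.37 CPM from 43.5 to 50.9 CPM (-2.55). CDK6 and the CDK inhibitor gene CDKN1A, named after their values were seen, both rose by 0.48. Of 47 replication-dependent histone genes tested, 25 fell and 11 rose (median -0.87, and -0.53 with the GC trend removed). Those that rose most among the more abundant were HIST1H2BK (3.41), HIST1H2BC (3.36), HIST1H2BD (2.86) and HIST1H1C (2.35). Histone genes are near-identical copies, so their counts are uncertain. The labels give poly(A) RNA libraries, and the part of poly(A) selection in the histone counts was not tested.

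Genes of the MYC network and its targets diverged. MYC and 7 other members of the 11 in the MYC, MAX and MXD network rose and 2 fell, with a median of 0.59. Genes of the repressive partners MXD1 and MXD4 rose, MXD4 by 0.97, and MXD3 (-3.05) and MYCL (-1.39) fell. Of 50 MYC target genes, by contrast, 7 rose and 37 fell, with a median of -0.56. RRP9, a component of the small nucleolar ribonucleoprotein, was at 2.85 to 3.39 CPM against 12.3 to 13.2 CPM (-2.04 ± 0.17). The folate carrier gene SLC19A1 (-1.92), the nucleolar phosphoprotein gene TCOF1 (-1.85) and the pyrimidine synthesis gene CAD (-1.80) fell with it.

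Components and targets of the HIF pathway moved in both directions. Of 10 components tested, 6 rose, including HIF1A, EPAS1, VHL (1.36) and the prolyl hydroxylase gene EGLN1 (1.30), and 3 fell, including EGLN3 (-1.02), itself a HIF target. VHL transcripts went from 16.8 to 18.4 CPM up to 41.4 to 52.6 CPM. These counts do not separate mutant from intact transcript. Of 25 glycolytic genes, 3 rose and 15 fell (median -0.47, and -0.24 with the GC trend removed), with LDHA at 1182 to 1301 CPM against 2414 to 2906 CPM (-1.14), ENO2 (-1.59) and PFKL (-1.44) lower and ALDOC (1.53) higher. GAPDH was not called (0.13). Of 36 other HIF target genes, 22 rose and 13 fell, with a median of 0.43. NDUFA4L2, a mitochondrial subunit typical of ccRCC, rose from 0.384 to 0.750 CPM up to 17.2 to 27.7 CPM (5.35 ± 0.22). The carbonic anhydrase gene CA9 rose from 5.84 to 6.70 CPM up to a mean of 40.6 CPM (2.69 ± 0.12), and the lipoprotein lipase inhibitor gene ANGPTL4 rose by 3.76. The lipid droplet gene HILPDA fell by 2.54.

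NF-kB target and cytokine genes were mostly higher. Of 38 tested, 26 rose and 8 fell, with a median of 0.71. IL1B, the inflammatory cytokine interleukin-1 beta, was at 106, 83.8, 95.9 and 112 CPM with shPAX8-1 and at 0.218, 0.325, 0.188 and 0.326 CPM with sgNTC18 (8.55 ± 0.17, edgeR adjusted p = 7.0e-18). IL1A, the related alarmin, was at 17.1 to 24.3 CPM against 0.327 to 0.534 CPM (5.46 ± 0.20). Neither overlapped between the groups. With shPAX8-2 IL1B was at 33.1 to 41.6 CPM and IL1A at 5.68 to 9.04 CPM.

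Interferon-stimulated genes showed no common direction in OS-LM1. Of 62 tested, 24 rose and 21 fell, with a median of 0.11, and 0.018 with the GC trend removed. SAMD9 (3.30), SAMD9L (3.07), the guanylate-binding protein gene GBP2 (2.69) and EPSTI1 (2.15) rose most, SAMD9 from 15.4 to 17.6 CPM up to 148 to 182 CPM. In 786-M1A 59 of the 62 were lower with shPAX8-1 (background 34.6%), with a median of -2.76, and the test of the difference between the lines called 59 of 62 higher in OS-LM1 (background 28.2%). MHC class I genes, which present peptides to T cells and are induced by interferon, were lower in both lines, with 1 higher and 16 lower in 786-M1A. In OS-LM1, 1 of 18 rose and 15 fell, with a median of -0.89. HLA-B was at 65.2, 84.9, 74.1 and 72.8 CPM with shPAX8-1 and at 253, 219, 231 and 220 CPM with sgNTC18 (-1.64 ± 0.09), HLA-C and HLA-F (-1.75) fell as well, and the immunoproteasome gene PSMB10 fell by 1.87. The HLA genes share sequence and their counts are uncertain.

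Immediate early genes, mesenchymal genes and matrix genes were also mostly higher. Of 26 AP-1 and immediate early genes, 19 rose and 4 fell (median 0.99), led by the MAP kinase phosphatase gene DUSP4 (3.90), FOSB (3.54), the receptor signalling inhibitor gene SPRY4 (3.13) and ATF3 (2.67). Of 26 EMT factors and markers, 18 rose and 5 fell (median 0.90). SNAI2, or Slug, was at 397, 267, 278 and 364 CPM against 22.4 to 27.8 CPM (3.75 ± 0.14), and ZEB2 was at 247 to 257 CPM against 34.6 to 42.6 CPM (2.65 ± 0.10). Other members of the list went against its name, with VIM and the smooth muscle gene TAGLN (-3.19) lower. Of 45 matrix genes, 26 rose and 15 fell (median 0.66). The laminin gene LAMA4 rose from 27.2 to 31.9 CPM up to 397 to 452 CPM (3.84 ± 0.09), and the fibrillar collagen gene COL3A1 was at 11.9 to 16.1 CPM against 0 to 0.0804 CPM. The stromal markers rose with these genes at low levels. DCN was at 0.476 to 1.12 CPM with shPAX8-1 against 0 to 0.148 CPM, LUM at 1.13 to 2.56 CPM against 0.473 to 0.670 CPM, PDGFRA at 0.309 to 0.717 CPM against 0 to 0.0886 CPM and PDGFRB at 0.270 to 1.08 CPM against 0.0268 to 0.266 CPM, and all 4 were called. The part of other cells in the rise of the matrix and mesenchymal genes was not tested.

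Coagulation, complement and serpin genes included both extremes. Of 34 tested, 19 rose and 5 fell, with a median of 0.66. SERPINB2, the plasminogen activator inhibitor PAI-2, was at 96.8, 81.4, 107 and 90.1 CPM with shPAX8-1 and at 0.354, 0.650, 0.643 and 0.534 CPM with sgNTC18 (7.42 ± 0.16), and SERPING1, the C1 inhibitor gene, rose by 4.03. The fibrinogen beta chain gene FGB fell from a mean of 246 CPM to 14.9 CPM. Its neighbours FGA and FGG, chosen after their values were seen, encode the other chains of fibrinogen and fell by 3.69 and 3.85. Of 23 YAP/TAZ target genes, 10 rose and 7 fell (median 0.05, and 0.14 with the GC trend removed). CTGF, the connective tissue growth factor gene, rose from 44.3 to 57.5 CPM up to 807 to 1039 CPM (4.22 ± 0.11), with NT5E (2.22), ASAP1 (1.21) and AMOTL1 (1.15), while CYR61, its closest relative in the list, was not called (0.03).

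p53 target genes leaned higher, with 16 of 30 up and 8 down (median 0.42). TP53INP1 (2.22), ZMAT3 (1.97) and the mitophagy gene SPATA18 (1.38) rose, and the apoptosis gene BBC3 fell by 1.36. Between the lines this list differed, since 20 of the members were higher in OS-LM1 than in 786-M1A in the test of the difference (background 28.2%) and 1 lower (background 27.1%). Stress and metabolic lists were more even. Of 42 ATF4 response and tRNA synthetase genes 15 rose and 15 fell (median -0.05), with SLC38A2 (1.42) up and GPT2 (-1.58), PCK2 (-1.54) and VARS (-1.45) down. Of 28 ER chaperone genes 12 rose and 8 fell, with a median of 0.14 that turned to -0.04 with the GC trend removed, and DNAJB9 (1.39) and ERN1 (1.26) rose while SDF2L1 (-1.94) and HYOU1 (-1.26) fell.

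Genes of cholesterol synthesis and uptake rose in 14 and fell in 7 of 25 cases (median 0.41). The sterol carrier gene STARD4 went from 12.7 to 14.5 CPM up to 103 to 141 CPM (3.13 ± 0.14), the sterol sensor gene INSIG1 from 50.1 to 65.7 CPM up to 299.6 to 314 CPM (2.45 ± 0.09), and TM7SF2 (1.91) rose as well. Lipid storage and fatty acid genes went the other way, with 7 of 27 up and 17 down (median -0.56, and -0.22 with the GC trend removed). CD36 (2.72) and PNPLA3 (2.54) rose, and FABP6 fell by 2.62. Of 25 NRF2 and metallothionein genes, 9 rose and 11 fell, with a median of 0.04, and -0.08 with the GC trend removed. NFE2L2, which encodes NRF2, rose from 179 to 211 CPM up to 755 to 1083 CPM (2.24 ± 0.14) and GCLC of glutathione synthesis by 2.39. MT1F fell by 3.15. MT1G was at 0 in all 4 shPAX8-1 libraries and at 8.12 to 9.14 CPM with sgNTC18, at least 258-fold lower against a floor of 3 counts over the group. Metallothionein genes are close copies, so how the counting divided reads among them is uncertain.

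Of 79 cytosolic ribosomal protein genes 44 rose and 17 fell, with a median of 0.35. RPL26 (2.10), RPL23A (1.68) and RPS20 (1.37) rose and FAU (-1.49) fell. Replicate 2 of shPAX8-1 had the lowest RPL26, at 702 CPM against 1281 to 1474 CPM in the other libraries of its group. The 74 nuclear genes of oxidative phosphorylation were even, 27 up and 27 down (median 0.03), with NDUFA8 (1.34), UQCRB (1.32) and NDUFA5 (1.17) higher and COX8A (-1.18) lower. Among the 13 genes of the RNA interference machinery itself, 7 rose and 6 fell, with a median of 0.31 that turned to -0.04 with the GC trend removed. AGO1 (-1.11), the export factor gene XPO5 (-0.93) and TARBP2 (-0.81) fell and TNRC6B (0.88) rose. Of the 19 immune, endothelial and stromal markers 8 passed the filter, 5 of them higher (CD68 and the 4 stromal markers) and ITGAM lower (-1.98).

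**Figure D4:**
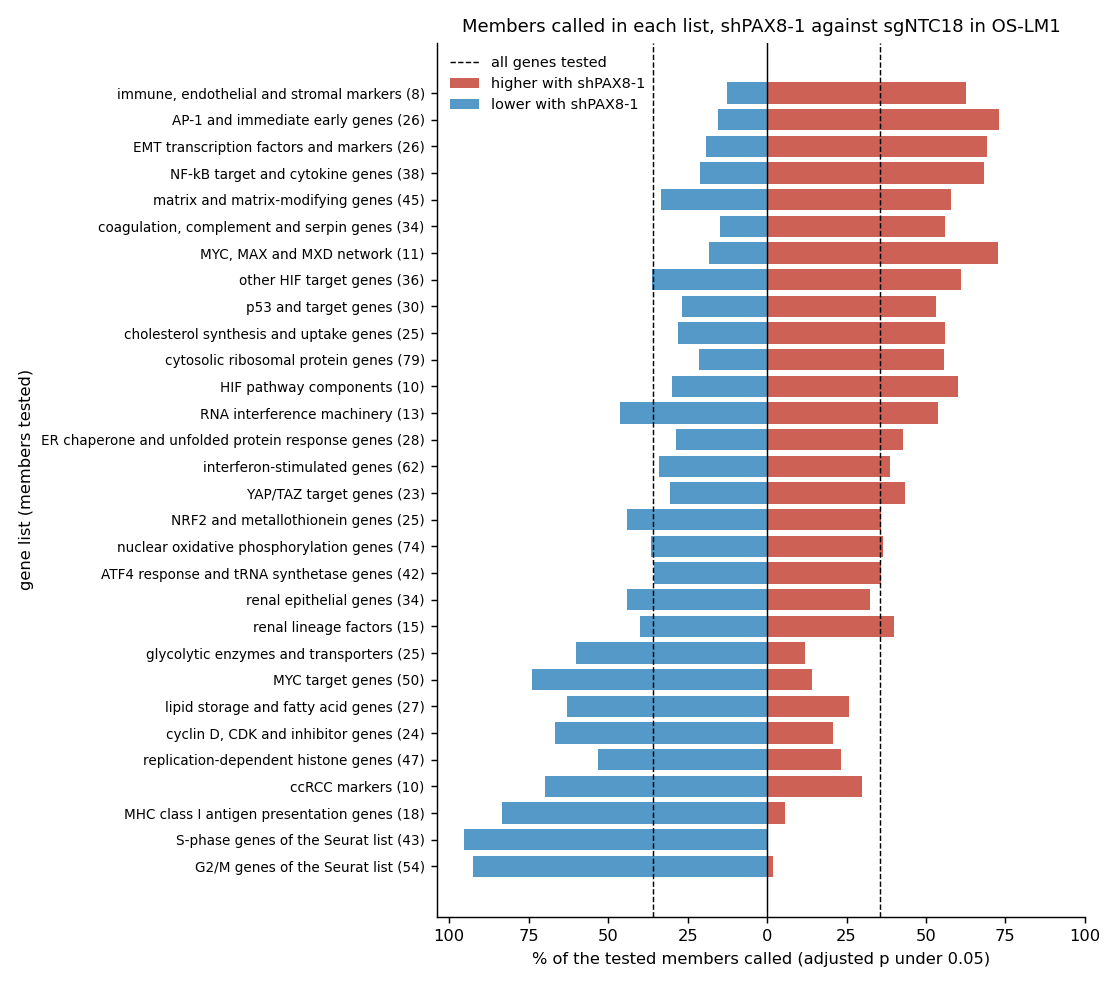
Percentage of the tested members of each gene list called higher or lower with shPAX8-1 than with sgNTC18 in OS-LM1, with lists in order of their median log2 fold change and the members tested in brackets. Dashed lines mark the shares over all genes tested, 35.6% higher and 35.8% lower. The S-phase and G2/M lists lie almost wholly on the lower side, at 95.3% and 92.6%.

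The direct comparison of shPAX8-1 with shPAX8-2 in OS-LM1 does not use the sgNTC18 levels in its differences. The sgNTC18 libraries still enter the filter, the normalization and the estimate of the spread. This comparison called 4378 of 15049 genes (29.1%), with 1859 higher (12.4%) and 2519 lower (16.7%) with shPAX8-1. Metalloproteinase genes of chromosome 11 led the higher side. MMP12, the macrophage elastase gene, was at 43.8, 31.0, 45.9 and 41.6 CPM with shPAX8-1 and at 0.0695, 0.476, 0.182 and 0.344 CPM with shPAX8-2 (7.26 ± 0.24, edgeR adjusted p = 8.2e-14), and it had 0 to 0.0295 CPM with sgNTC18. MMP1 was at 86.4 to 133 CPM against 2.92 to 3.81 CPM (4.98 ± 0.16), and MMP3 at 346 to 381 CPM against 24.6 to 29.7 CPM (3.71 ± 0.11). LINC01279 (2.68) and SERPINB2 (2.66) followed. MMP3 and SERPINB2 were thus also above the sgNTC18 level with shPAX8-2, whereas MMP1 with shPAX8-2 lay just above its sgNTC18 range of 2.04 to 2.65 CPM.

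Receptor, channel and secreted peptide genes led the lower side, and for CCR6, KCNK3, SAA1 and EDN1 the shPAX8-1 and sgNTC18 libraries overlapped. The chemokine receptor gene CCR6 was at 3.23 to 3.90 CPM with shPAX8-1, 18.6 to 22.2 CPM with shPAX8-2 and 2.38 to 3.87 CPM with sgNTC18 (shPAX8-1 against shPAX8-2, -2.51 ± 0.14). The potassium channel gene KCNK3 was at 10.5 to 12.7, 45.3 to 70.7 and 10.2 to 13.3 CPM in the same order (-2.25 ± 0.13). SAA1, an acute phase protein gene, was at 10.6 to 14.2, 44.8 to 47.5 and 11.2 to 12.3 CPM (-1.88 ± 0.11). For EDN1, which encodes the vasoconstrictor endothelin-1, the levels were 14.8 to 16.9, 58.1 to 66.1 and 15.2 to 22.7 CPM. IFFO2 was lower with shPAX8-1 than in either other group, with a log2 fold change of -1.41 against sgNTC18.

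Replication genes fell further with shPAX8-1. Of the S-phase list, 35 of 43 were lower with shPAX8-1 than with shPAX8-2 (median -0.58, background 16.7%), and of the G2/M list 33 of 54 were lower and 1 higher (median -0.37). Interferon-stimulated genes differed in the other direction, with 30 of 62 higher with shPAX8-1 and 3 lower (median 0.39, background 12.4%). Against the shared sgNTC18 libraries the interferon list had 24 members up and 21 down with shPAX8-1 and 19 up and 33 down with shPAX8-2 (background for shPAX8-2 68.4% in either direction). Of the 74 oxidative phosphorylation genes, 19 were higher and 1 lower with shPAX8-1.

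Genes whose 3′ UTR matches the shPAX8-1 seed were more often lower with shPAX8-1 than with shPAX8-2. The site searched was GACTCACA on the transcript strand only, the match to bases 2 to 8 of the guide followed by A, and 320 of 13219 tested genes with an annotated 3′ UTR (2.42%), PAX8 left aside, held it. Of these, 35.6% were lower and 8.1% higher than with shPAX8-2 (median -0.21), whereas of the 12899 genes without the site 18.1% were lower and 11.7% higher (median -0.05). The genes with the site have longer 3′ UTRs, with a median of 3054 bases against 1288 bases. For the shPAX8-2 seed site, CAACTCTA, whose 316 genes have a median 3′ UTR of 3468 bases, 15.5% were lower and 16.8% higher (median 0.02). Among the 12903 genes without the CAACTCTA site, 18.6% were lower and 11.5% higher (median -0.05). Against sgNTC18, genes with the shPAX8-1 site had a median of -0.14, with 40.0% lower and 30.3% higher, beside 37.2% lower and 37.0% higher among genes without it (median -0.0042).

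The 5 genes with the site that lay furthest below their shPAX8-2 level were chosen in that direction, after their values were seen. They come from genes called between the hairpins at a mean log2 CPM of at least 3 over the 8 libraries. Of all genes with the site, 114 were called lower and 26 higher. The 5 are shown with the bases upstream of the site and the site in capitals, from the hg38 genome and GENCODE annotation.
BCL2, chr18:63128029-63128050, minus strand: gactctttgcatatGACTCACA
MYADM, chr19:53876229-53876250, plus strand: tcctgcttgtctggGACTCACA
FAM132B, chr2:238168629-238168650, plus strand: gcgattctcagtagGACTCACA
PDLIM1, chr10:95237766-95237787, minus strand: tgccttggttaattGACTCACA
CACHD1, chr1:64692783-64692804, plus strand: agtgatgtattttaGACTCACA

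BCL2, the anti-apoptotic gene, was at 5.63, 5.18, 5.13 and 5.49 CPM with shPAX8-1, 20.4, 20.7, 17.6 and 16.7 CPM with shPAX8-2 and 22.1, 18.4, 21.5 and 19.9 CPM with sgNTC18. It was low only in the shPAX8-1 libraries, a log2 fold change of -1.81 ± 0.11 between the hairpins and of -1.93 ± 0.11 against sgNTC18. FAM132B, which encodes the iron hormone erythroferrone, had the same order, at 4.56 to 6.70, 12.5 to 19.2 and 12.8 to 16.0 CPM (-1.36 between the hairpins). MYADM, at 387 to 591, 1286 to 1685 and 799 to 1005 CPM, and PDLIM1, at 192 to 240, 457 to 577 and 261 to 305 CPM, were below sgNTC18 with shPAX8-1 and above it with shPAX8-2. CACHD1 was above its sgNTC18 level of 17.9 to 18.7 CPM with both hairpins, at 35.6 to 38.1 CPM with shPAX8-1 and 75.6 to 83.2 CPM with shPAX8-2. Of the genes named by the rules given under the processing of the data, CDCA3, AGO1 and UQCRB hold the site. CDCA3 (-0.77) and AGO1 (-0.83) were lower with shPAX8-1 than with shPAX8-2. UQCRB was not called between the hairpins (0.51, edgeR adjusted p = 0.20). Genes named outside those rules, apart from the 5 above, were not looked up. A match is a description of the sequence, and binding was not measured.

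**Figure D5:**
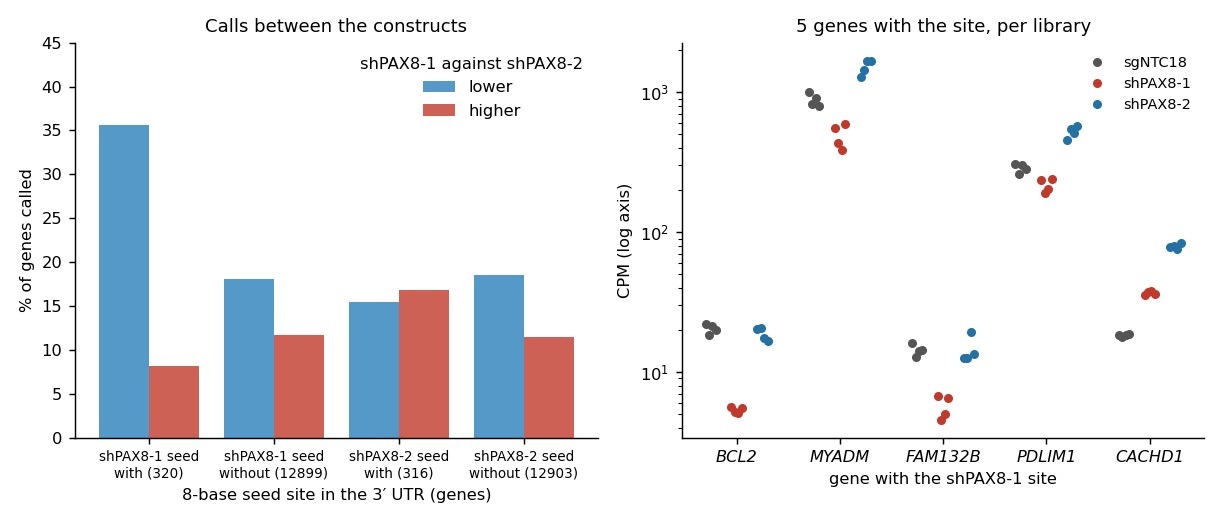
Left, percentage of genes called lower or higher with shPAX8-1 than with shPAX8-2 in OS-LM1, for genes with and without an 8-base site for each hairpin's seed in the 3′ UTR. Right, CPM per library on a log axis of the 5 genes with the shPAX8-1 site chosen as furthest below their shPAX8-2 level. With the shPAX8-1 site 35.6% of genes were lower, and BCL2 is low in the 4 shPAX8-1 libraries only.

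The response to shPAX8-1 differed between OS-LM1 and 786-M1A for 8667 of 15665 genes tested (55.3%). In 786-M1A itself 69.5% of genes were called against its own sgNTC18 libraries. OAS2, an interferon-induced antiviral enzyme gene, was at 37.1, 36.3, 36.5 and 40.1 CPM with shPAX8-1 and at 31.0, 40.5, 40.0 and 30.8 CPM with sgNTC18 in OS-LM1, overlapping groups, whereas in 786-M1A it went from 280 ± 30.2 to 0.763 ± 0.155 CPM (SD, n = 4), an edgeR difference between lines of 8.62 ± 0.19. IFI27 gave a difference of 7.37 and SAMD9L of 7.32. GPR183, an oxysterol receptor gene, rose in OS-LM1 from 0.0593 to 0.245 CPM up to 9.43 to 16.8 CPM (interaction 7.51), and ANGPTL4 rose in OS-LM1 and fell in 786-M1A (interaction 7.33). HIF1A rose more in OS-LM1, by 2.21 against 1.13 in the fit of all 24 libraries (difference 1.08 ± 0.19).

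The 5 largest differences the other way were genes at or near 0 CPM with shPAX8-1 and well above it with sgNTC18 in OS-LM1. TGFB1I1, which encodes the focal adhesion protein Hic-5, was at 0, 0.0512, 0.0386 and 0.110 CPM with shPAX8-1 and at 84.6, 70.4, 76.7 and 68.9 CPM with sgNTC18, and SRGN, the serglycin gene, at 0.293 to 0.848 CPM against 68.6 to 86.2 CPM. UGT1A10, which shares exons with the other UGT1A genes, was at 0 to 1.07 CPM against 80.1 to 97.8 CPM. PCNA-AS1 was at 0 in all 4 shPAX8-1 libraries and at 37.4 to 47.9 CPM with sgNTC18, at least 1333-fold lower against the same floor. That floor covers counting error only. With shPAX8-2, PCNA-AS1 was under 0.5 CPM in 3 libraries and at 13.3 CPM in 1. Its reads cannot be told apart from those of PCNA unless the counting used strand, which is not stated. C15orf38-AP3S2, a readthrough of neighbouring genes, was at 0 in all 4 and at 3.76 to 26.6 CPM with sgNTC18.

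Genes present in all libraries of a group and nearly absent from the other were counted with a fixed limit, which TGFB1I1 and PCNA-AS1 meet and SRGN, UGT1A10 and C15orf38-AP3S2 miss. Leaving out the Y chromosome, 19 genes were over 5 CPM in all 4 sgNTC18 libraries and under 0.5 CPM in all 4 shPAX8-1 libraries, and for 14 of them all 4 shPAX8-2 libraries were under 0.5 CPM as well. They include CASP14, DSP (desmoplakin), FOXP2, GSTA1 and VAV3, which were chosen here after their values were seen. In the opposite direction there were 27 genes, 14 of them over 5 CPM in all 4 shPAX8-2 libraries too, including the lipid receptor gene OLR1, the iron exporter gene SLC40A1 and the transporter gene SLC47A1. The readthrough gene TMEM189-UBE2V1 was at 0 in all 8 sgNTC18 libraries of both lines and at 48.3 to 90.7 CPM in the OS-LM1 shPAX8-1 libraries, and was present in every other shPAX8 library. The part of the cell stock or of the quantification in these differences was not tested.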

How the data were processed

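Per the labels, poly(A) RNA libraries were made with a KAPA stranded kit, while the study's methods name Lexogen kits. According to the submitters' processing notes and the study's methods, reads were mapped to hg38 with RSEM and Bowtie2; the annotation release is not given in the sources used here. The authors deposited RSEM expected counts, without normalization, and TPM for 26475 genes per library; the effective length equals the full length for every gene. The deposited TPM values were used only for levels between genes.

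Expected counts were rounded to whole numbers. The 12 OS-LM1 libraries were fitted together in R 4.3.3 with edgeR 4.0.16 (filterByExpr, TMM, robust quasi-likelihood test, Benjamini-Hochberg adjustment over all genes tested, threshold 0.05), and the interaction used all 24 libraries. DESeq2 1.42.0, the study's tool, was an alternative. Scripts were checked on simulated counts with seeded fold changes. Log2 CPM used a prior count of 2. SDs and SEs carry the spread between libraries, and the floor of 3 counts covers counting error only. No pair of replicates agreed within sampling noise.

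Named genes were PAX8 and 6 genes the study discusses with it; the 12 that rose and fell most at an average log2 CPM of at least 3 without overlap; the 5 largest gains and losses in mean CPM; up to 4 members per list at an average log2 CPM of at least 1, with defining members that did not pass; and the 5 most extreme each way in the other contrasts. The members and the 30 lists were chosen with earlier results of these data known. GC content and names came from RefSeq and GENCODE on GRCh38, matched by accession for 25653 genes. GC trends were removed by a spline with 5 degrees of freedom. Guide sequences are the study's. Columns of per-sample values left unmapped numbered 0. Results for some genes are not reported here.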

Additional observations from a re-analysis of the deposited data

Results flagged for a closer look

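For 3 of 6 genes (PAX8 and 5 described with it), the response to shPAX8-1 differed between OS-LM1 and 786-M1A in the interaction test of edgeR over 24 libraries. The log2 fold change in OS-LM1 minus that in 786-M1A was 2.45 for PAX8 (SE 0.20, edgeR adjusted p = 1.1e-10), from a fall by 1.73 in OS-LM1 and by 4.18 in 786-M1A in that fit. MYEOV fell further in OS-LM1, with a difference of -0.64 (edgeR adjusted p = 3.0e-03). For HIF1A the difference was 1.08 (edgeR adjusted p = 2.2e-05), with larger increases in OS-LM1. For MYC, CCND1 and EPAS1 the differences of -0.23, -0.27 and -0.09 were not called (edgeR adjusted p = 0.26, 0.19 and 0.67). Each line has its own sgNTC18 libraries, so the interaction also carries any difference between lines in how those libraries were made. A single library standing far from its group was looked for in 40 groups of 4 values, and 0 were found.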

How the results depend on the processing

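Of the alternatives for the counts and for the 6 genes, 186 gave the same direction and side of the threshold, or a count within 1.5 times, and 3 did not. Calls against sgNTC18 fell from 10746 to 4749 with a log2 fold change over 1 and to 5880 in a test against a 1.5-fold change, and the median of genes with the shPAX8-1 seed site moved from -0.14 to -0.076 with a 7-base site. Leaving out each library in turn gave 10307 to 10632 calls against sgNTC18, 3558 to 4885 between the hairpins, 8289 to 8746 in the interaction and 763 to 779 called list members. The same ranges were -1.83 to -1.65 for PAX8, 0.66 to 0.82 for MYC, -1.04 to -0.87 for CCND1, -3.13 to -2.96 for MYEOV, 0.47 to 0.59 for EPAS1 and 2.12 to 2.25 for HIF1A. Whether replicates of the same number share more than that number is not known. Same-number deviations of the OS-LM1 shPAX8-1 and sgNTC18 libraries correlated at -0.036, 0.071, 0.102 and -0.011. Unlike numbers gave -0.10 to 0.077, and the other groups were not examined in this way. With the replicate block 10355 genes were called against sgNTC18, 3642 between the hairpins and 8571 in the interaction.

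Among named genes, log2 fold changes against sgNTC18 close to 0 turned in sign. With the GC trend removed CCR6 was -0.077 and OAS2 -0.021, and -0.066 and -0.011 with the replicate block as well. KCNK3 was -0.0023 on the 8 libraries only and -0.019 with ribosomal RNA genes left out, an alternative chosen after seeing the data, and ran from -0.04 to 0.11 when each library was left out. With the GC trend removed KCNK3 (0.37), SAA1 (0.42) and IFI27 (0.28) became called higher than with sgNTC18 (edgeR adjusted p = 0.0022, 0.0024 and 0.043), and with the replicate block as well. EDN1 lost its call without sgNTC18 replicate 1 or 3 and ACTB with the GC trend removed and the replicate block (-0.23). Of the list medians and counts, 117 values moved beyond the spread between libraries or 1.5 times in count, beside those given here as turned in sign, and 1582 did not. The median of renal lineage factors turned to 0.21 without the filter and 0.044 with DESeq2, and that of renal epithelial genes to 0.31 and 0.052, to 0.18 with the GC trend removed, with or without the replicate block, and ran from -0.18 to 0.019 when each library was left out. With the GC trend removed ER chaperones turned to -0.044 and RNA interference machinery to -0.045, and with the replicate block as well to -0.045 and -0.045. The causes were not tested.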
